A study of Mus musculus with 6 samples.

Results

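The genes described here are 47 DNA replication and S phase genes, chosen by symbol from a fixed list and matched by Ensembl identifier to 47 of the 55487 genes counted in retina. All 47 passed the filter on low counts, which left 17275 genes. Retinas of mouse embryos (C57BL/6, embryonic day 16.5) were profiled by bulk RNA sequencing, with both eyes of an animal combined and 1 library per animal. The 3 libraries labelled Foxp1 cKO came from animals with Foxp1 fl/fl alleles and Six3-Cre, a Cre recombinase driven by Six3 sequence. The 3 libraries labelled control came from littermates with the Foxp1 fl/fl alleles alone, so every animal carried the floxed alleles and all were of 1 litter. The comparison asks which transcripts depend on the forkhead transcription factor Foxp1 in developing retina.

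Before a cell copies its DNA, the origin recognition complex with Cdc6 and Cdt1 loads the MCM2-7 ring onto origins, and geminin blocks reloading once S phase has begun. Cdc7 kinase, Cdc45 and the GINS complex turn the ring into an active helicase, after which polymerase alpha-primase, polymerases delta and epsilon, the PCNA clamp with its RFC loader, and RPA copy and protect the strands. Many of these genes are transcribed under E2F factors as cells pass from G1 into S phase. In the embryonic retina they mark the cycling progenitors, which lie beside neurons that have left the cell cycle.

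The targeted gene went against the labels, as did the sex of a pair of libraries. Foxp1 was at 50.8, 41.1 and 46.2 CPM (counts scaled to a common library size, with TMM factors) in control-labelled retinas and at 72.4, 75.5 and 68.8 CPM in cKO-labelled retinas. Its log2 fold change was 0.65 (standard error 0.07, edgeR adjusted p 4.63e-05), higher where a knockout is labelled, and which exons are deleted is not given in the sources used here. Labelled sex was female, female and male in control-labelled libraries 1 to 3, and female, male and male in cKO-labelled libraries 1 to 3. The library labelled control 2 and the library labelled cKO 2 had sex-linked counts opposite to their labelled sex. Control 2 had 13 counts of Xist and 802 of Ddx3y, and cKO 2 had 14143 and 0. Sex was thus unbalanced between the groups both by label and by these counts. By the counts, control-labelled libraries 1 to 3 read female, male and male, which are the labelled sexes of cKO-labelled libraries 1 to 3. The cKO-labelled libraries read female, female and male, the labelled sexes of the control-labelled ones. Whether the labels of the whole groups were exchanged was not tested. Groups are therefore called "labelled" throughout, and every direction below rests on those labels. Total counts ran from 23707761 to 25714620 per library. Fgf15, a gene of retinal progenitors, was at 787 to 911 CPM and the neuronal tubulin Tubb3 at 1282 to 1494 CPM, so RNA of both cycling and differentiated retinal cells was present. In bulk tissue, fewer cells in S phase and less RNA per cell cannot be told apart.

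The promoters of these genes were searched for short elements, which played no part in choosing the genes. RefSeq promoter sequences (GRCm38.p6, the assembly of the mm10 build, 250 bases before to 50 after the transcription start) were found for 38 of the 47 genes. An E2F-type element, taken as TTTCCCGC or TTTCGCGC or TTTGCCGC or TTTGGCGC on either strand, was present in 14 of these 38 (36.8%). It was present in 2.6% of all 27025 genes with a promoter, and in 4.64% of the 11623 tested genes with one. A CCAAT box (CCAAT) was in 63.2% of the members, against 41.1% of all genes and 42.8% of the tested genes. The GC box (GGGCGG) was in 78.9% of the members, against 38.2% of all genes and 68.2% of the tested genes. The cell cycle homology element (TTTGAA), a feature of mitotic genes, was in 15.8% of the members, against 20.2% of all genes and 13.8% of the tested genes. These are matches of letters in a fixed window and say nothing of whether a factor was bound.

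The windows below are shown because they hold the E2F-type letters in the 4 MCM genes with a match and in 3 origin licensing genes. Each is 60 bases, 5′ to 3′ along the gene's own strand, and capitals mark the bases of the E2F-type matches in the window on either strand.
Mcm3 (chr1:20820263-20820322, minus strand): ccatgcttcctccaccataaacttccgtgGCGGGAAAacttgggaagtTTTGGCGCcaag
Mcm5 (chr8:75109330-75109389, plus strand): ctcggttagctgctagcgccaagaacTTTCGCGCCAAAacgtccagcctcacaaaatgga
Mcm6 (chr1:128359782-128359841, minus strand): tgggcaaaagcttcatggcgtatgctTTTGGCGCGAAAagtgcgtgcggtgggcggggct
Mcm7 (chr5:138172015-138172074, minus strand): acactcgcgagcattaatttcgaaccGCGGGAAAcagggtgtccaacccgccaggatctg
Orc1 (chr4:108579401-108579460, plus strand): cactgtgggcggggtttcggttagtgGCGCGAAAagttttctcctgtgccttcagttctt
Cdc6 (chr11:98907987-98908046, plus strand): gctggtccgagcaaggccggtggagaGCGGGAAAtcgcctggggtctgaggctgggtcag
Cdt1 (chr8:122568005-122568064, plus strand): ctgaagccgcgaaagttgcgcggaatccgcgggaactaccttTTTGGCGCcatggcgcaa

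In Mcm5 and Mcm6 a pair of matches overlaps, so the capitals form a single run that reads as an E2F-type element on both strands. In Mcm3 both matches lie after the start. The Orc1 match begins 27 bases before the start and the Cdc6 match 138 bases before it. The other members with a match were Gins3, Pola1, Pold1, Rfc3, Lig1, E2f2 and Uhrf1. The median log2 fold change between the labelled groups was -0.01 over the 14 genes with a match and 0.06 over the 24 without one, and this difference was not tested. These medians leave out the 9 members with no promoter entry: Pole, Gins4, Gins2, Gins1, Gmnn, Prim2, Ccne2, Mcm4 and Rfc2.

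None of the 47 genes passed the test between the labelled groups. The count was 0 of 47 at an edgeR adjusted p of 0.05, against 0.781% of all genes (135 of 17275). DESeq2 and limma-voom also gave 0 of 47, against 3.28% and 0.0753% of all genes. DESeq2 gave no adjusted p for some members, Gmnn and Ccne2 among them, so these could not be called. Its 3.28% is over all 17275 genes, with or without an adjusted p. At an unadjusted p below 0.05 DESeq2 gave 7 members (12.8% of all genes) and limma-voom 9 (15.9% of all genes). The smallest adjusted p was 0.089 (edgeR, Pole). In edgeR 9 members (19.1%) had an unadjusted p below 0.05, against 16.5% of all genes. Without control 2 and cKO 2, 0 members passed (0.0516% of all genes) and 3 had an unadjusted p below 0.05 (6.91% of all genes). The largest fold change was that of Gins4, at 1.14-fold, and 37 of the 47 lay under 1.1-fold in either direction. The 95% interval of the fold change, unadjusted for the number of genes, stayed within 0.32 on the log2 scale for 41 members and within 1.5-fold for all 47. The 6 with an interval reaching past 0.32 were Orc1, Gmnn, Rfc4, Rpa3, Ccne1 and Ccne2, and the farthest bound was 0.38 on the log2 scale, for Ccne1.

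**Figure D1:**
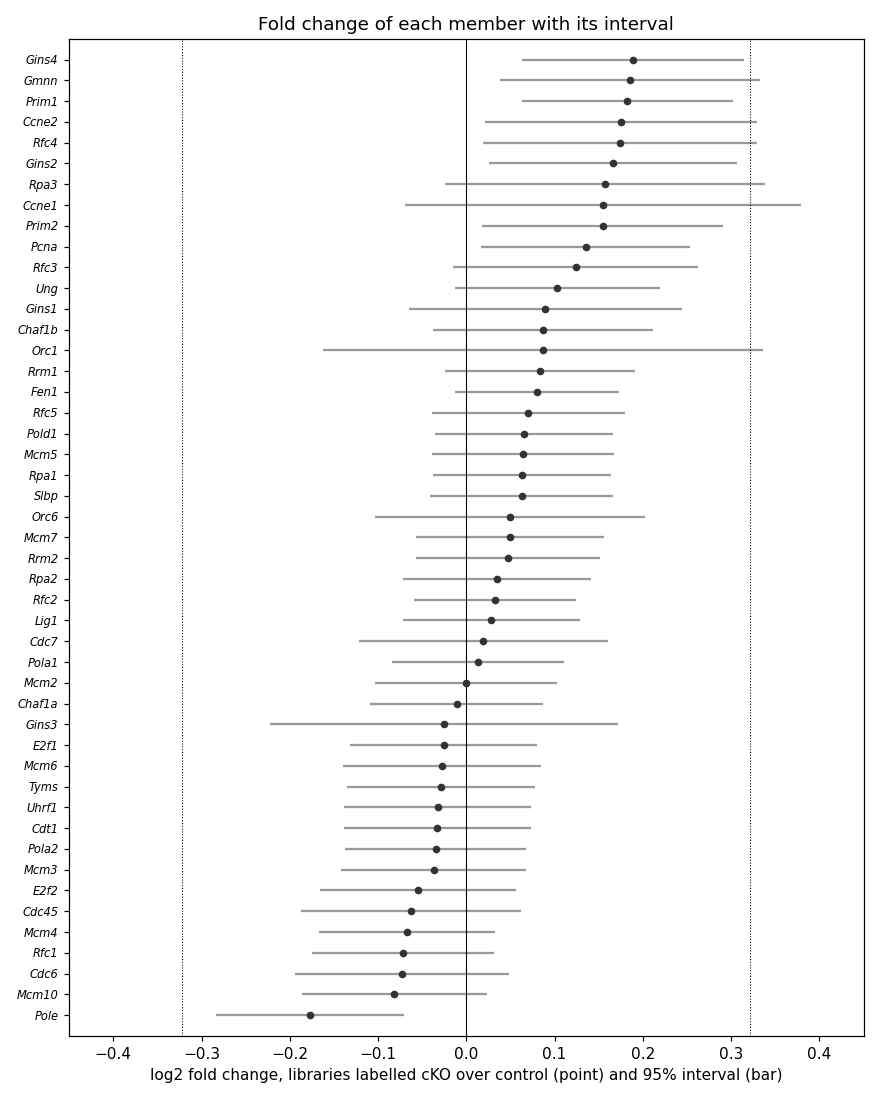
Log2 fold change of each of the 47 genes, libraries labelled Foxp1 cKO over libraries labelled control (points; 3 libraries each), with the 95% interval from the edgeR fit (bars); dotted lines mark 0.32 in either direction. All points lie between -0.18 (Pole) and 0.19 (Gins4), and 41 intervals stay inside the dotted lines.

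Values were higher in cKO-labelled retinas for 30 members (63.8%, against 50.1% of all genes) and lower for 17, with a median log2 fold change of 0.05, against 0.00073 over all genes tested. For 11 members every library labelled cKO lay above every library labelled control (23.4%), against 10.8% of all genes. For 3 members, Mcm10, Pole and E2f2, all lay below (6.38%), against 9.3% of all genes. The median of 0.05 was 0.04 without control 2 and cKO 2, and between 0.03 and 0.07 with each library left out. The summed level of the 47 genes was 4818, 4987 and 4893 CPM in control-labelled retinas and 4980, 5065 and 4915 CPM in cKO-labelled retinas. These sums overlapped between the groups and spanned a factor of 1.05 from lowest to highest.

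**Figure D2:**
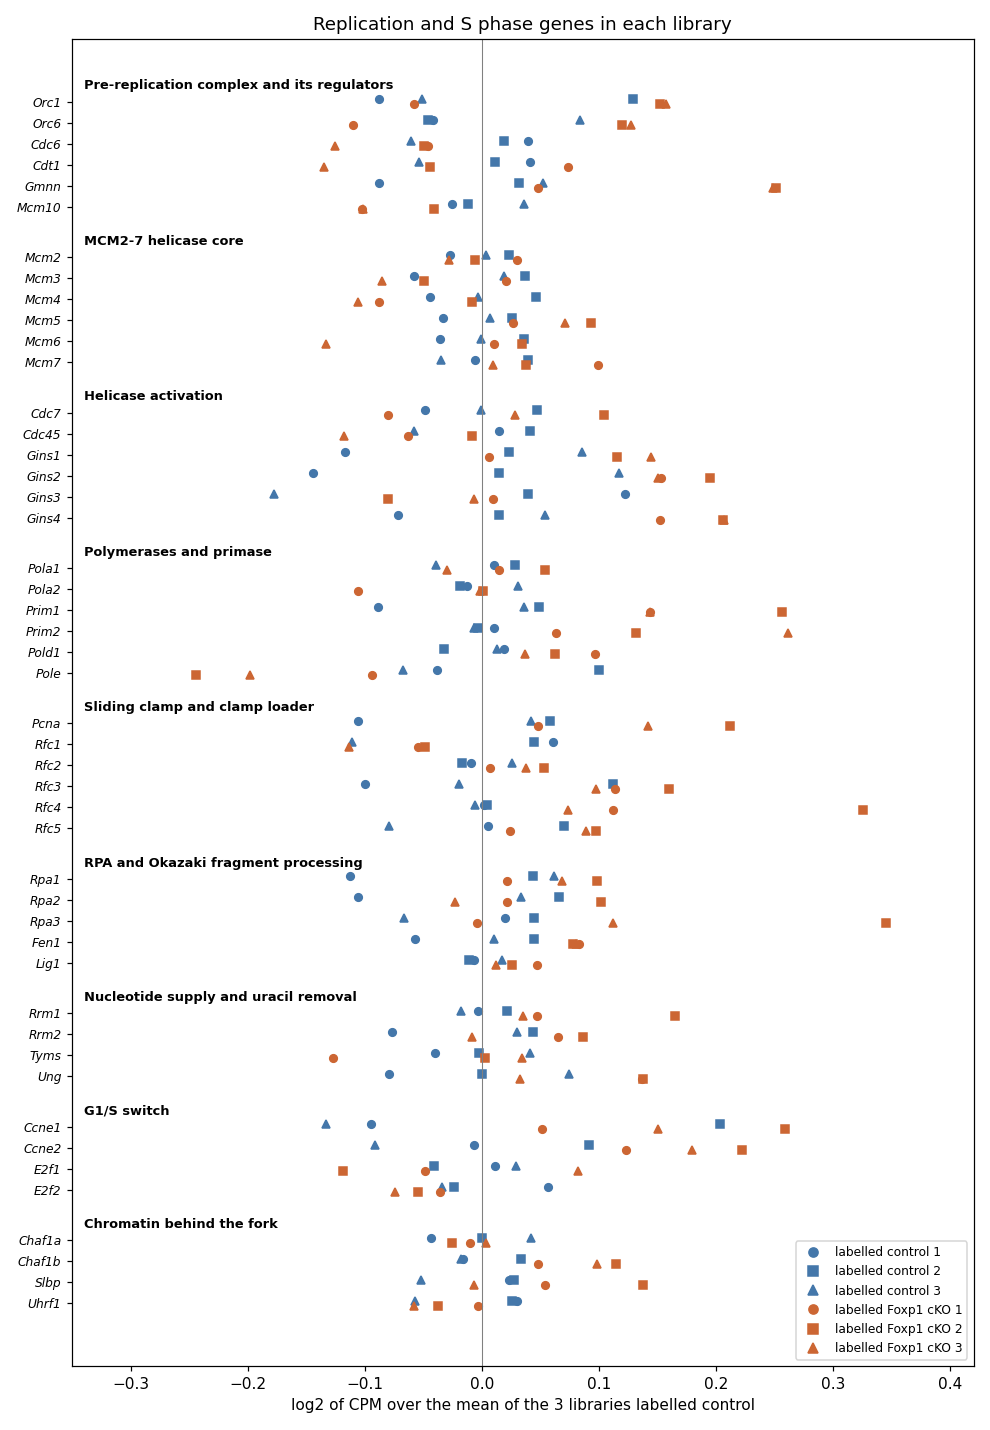
Log2 of the CPM of each gene in each of the 6 libraries over its mean in the 3 libraries labelled control, by role; marker shape gives the replicate number. Orange squares (labelled cKO 2) lie farthest right in many rows, and blue and orange points overlap for 33 of the 47 genes.

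Single libraries stood at the ends of the range more often than others. The library labelled cKO 2, with sex-linked counts opposite to its label, was the highest of the 6 for 21 of the 47 genes. The library labelled control 1 was the lowest for 15 and control 3 for 12. Over all genes tested, cKO 2 was the highest for 21.7%, control 1 the lowest for 23.7% and control 3 the lowest for 10.9%, against 44.7%, 31.9% and 25.5% of the members. The coefficient of variation over the 6 libraries ran from 1.49% (Lig1) to 10.96% (Ccne1), with a median of 4.62% against 8.23% over all genes tested, and the members sat at a median percentile of 77.4 by level.

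Among the genes that license origins, none separated upward between the groups. Geminin (Gmnn, which binds Cdt1 and blocks a further round of licensing) was at 31.6, 34.3 and 34.8 CPM in control-labelled retinas and at 34.7, 39.9 and 39.8 CPM in cKO-labelled retinas. The library labelled cKO 1 lay within the control range, so the groups overlapped (log2 fold change 0.19, standard error 0.07, edgeR adjusted p 0.181). Cdt1, the loader that geminin inhibits, was at 99.2, 97.2 and 93.0 CPM against 102, 93.5 and 87.9 CPM. Its log2 fold change of -0.03 (standard error 0.05) was smaller than the range within either group. The replication initiation factor Mcm10 was at 56.1, 56.6 and 58.6 CPM in control-labelled retinas and at 53.2, 55.5 and 53.2 CPM in cKO-labelled retinas, without overlap (log2 fold change -0.08, edgeR adjusted p 0.457). Orc1 and Orc6, subunits of the origin recognition complex, were at 0.09 and 0.05 on the log2 scale, and Cdc6 at -0.07.

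The 6 subunits of the MCM2-7 helicase, the ring that unwinds DNA, stayed close to their control levels. Their log2 fold changes lay between -0.07 (Mcm4) and 0.06 (Mcm5), and no unadjusted p was below 0.05. Mcm2 was at 260, 269 and 266 CPM in control-labelled retinas and at 271, 264 and 260 CPM in cKO-labelled retinas, a log2 fold change of -0.00086 with a 95% interval from -0.10 to 0.10. Mcm7 was at 287, 296 and 281 CPM against 308, 296 and 290 CPM, and the groups overlapped. Mcm5 was at 234, 244 and 241 CPM against 244.4, 256 and 252 CPM, the 1 subunit without overlap, by a margin of under 1 CPM. The interval of each subunit stayed within 0.32 on the log2 scale. Mcm3 (-0.04), Mcm4 (-0.07) and Mcm6 (-0.03) were slightly lower in cKO-labelled retinas, none past the test.

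Of the factors that activate the helicase, the GINS subunits differed among themselves. Gins4 was at 38.5, 40.8 and 41.9 CPM in control-labelled retinas and at 44.9, 46.6 and 46.6 CPM in cKO-labelled retinas. The groups did not overlap, with a log2 fold change of 0.19 (standard error 0.06) and an edgeR adjusted p of 0.117. Gins2 was at 35.4, 39.6 and 42.5 CPM against 43.6, 44.8 and 43.5 CPM, again without overlap (0.17, standard error 0.07, adjusted p 0.213, and 0.10 without control 1). The exons of Gins2 share 2758 bases with Gse1 on the opposite strand, and whether the counting used the strand is not given in the sources used here. Exons of 14 members overlap those of a gene on the opposite strand, so reads of the pairs may not be separable. The longest overlap is that of Chaf1a (4648 bases, Ubxn6). Pole (78 bases, Gm15792) and Rfc4 (194 bases, Eif4a2) are also among the 14. Gins1 was at 23.3, 25.7 and 26.8 CPM against 25.4, 27.4 and 27.9 CPM, with overlap (0.09), and Gins3, the lowest of the 4, was at -0.03. The kinase gene Cdc7 (0.02) and the helicase cofactor gene Cdc45 (-0.06) overlapped as well.

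The polymerase and primase genes held both the lowest fold change and some of the highest. Pole, the catalytic subunit of leading strand polymerase epsilon, had the smallest p of all members. The gene (ENSMUSG00000007080, chromosome 5, 110286306 to 110337474, plus strand, mm10) was at 105, 115 and 103 CPM in control-labelled retinas and at 101, 90.8 and 93.8 CPM in cKO-labelled retinas. The groups did not overlap, with a log2 fold change of -0.18 (standard error 0.05) and an edgeR adjusted p of 0.089. Without the library labelled control 3 the value was -0.21, and without cKO 1 it was -0.22, and Pole passed in both (edgeR adjusted p 0.035 each), where 4.4% and 2.04% of all genes passed. It was -0.12 without control 2 (adjusted p 0.341), -0.14 without cKO 2 (adjusted p 0.458) and -0.09 without both of these (adjusted p 0.764). Leaving out both gives a fit with fewer libraries, in which 0.0516% of all genes passed. The primase subunit Prim1 was at 44.7, 49.2 and 48.8 CPM against 52.6, 56.8 and 52.6 CPM (0.18, standard error 0.06, adjusted p 0.111). Its partner Prim2, the large primase subunit, was at 37.9, 37.6 and 37.5 CPM against 39.4, 41.3 and 45.2 CPM (0.15, standard error 0.07, and 0.10 without cKO 3). Both primase genes lay above the controls in every library labelled cKO. The other subunits of the same complex, Pola1 (0.01) and Pola2 (-0.03), showed no such separation. Pold1, the catalytic subunit of polymerase delta, was at 200.1, 193 and 199 CPM against 211, 206 and 203 CPM, without overlap (0.07, standard error 0.05).

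Of the PCNA clamp and its loader, 5 of 6 genes were above 0 in cKO-labelled retinas and none passed the test. Pcna, the sliding clamp that tethers polymerases to DNA, was at 238, 266 and 263 CPM in control-labelled retinas and at 264, 296 and 282 CPM in cKO-labelled retinas. The library labelled cKO 1 lay below the library labelled control 2, so the groups overlapped (0.14, standard error 0.06, edgeR adjusted p 0.231, and 0.09 without control 1). Pseudogenes named after Pcna and Tyms are annotated, so the counts of both genes are uncertain. Pseudogenes of the members under other names were not searched for. Rfc4, a small clamp loader subunit, was at 26.9, 26.9 and 26.8 CPM against 29.0, 33.7 and 28.3 CPM. The groups did not overlap (log2 fold change 0.17, standard error 0.08), and without the highest library, cKO 2, the value was 0.09. Rfc3 was at 34.9, 40.4 and 36.9 CPM against 40.4, 41.7 and 40.0 CPM (0.12, and 0.08 without control 1), with overlap. Rfc5 (0.07) and Rfc2 (0.03) overlapped, and Rfc1, the large subunit, was at -0.07.

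The single-strand binding and Okazaki fragment genes were all slightly above 0, and none passed. Rpa3, the smallest RPA subunit, was at 17.8, 18.1 and 16.8 CPM against 17.5, 22.3 and 19.0 CPM, with cKO 2 again the highest (0.16, standard error 0.09, and 0.06 without cKO 2). Rpa1 was at 0.06 and Rpa2 at 0.03. The flap endonuclease Fen1 was at 87.3, 93.6 and 91.5 CPM against 96.2, 95.8 and 96.0 CPM, without overlap (0.08, standard error 0.04, edgeR adjusted p 0.387). Its exons share 1909 bases with the antisense gene Gm10143. The ligase Lig1, at 225, 224 and 228.5 CPM against 233, 229.8 and 228 CPM, varied least of all 47 genes.

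Genes of nucleotide supply and base repair overlapped between the groups, except Rrm1. The ribonucleotide reductase subunit Rrm1 was at 246, 251 and 244 CPM in control-labelled retinas and at 255, 277 and 253 CPM in cKO-labelled retinas (0.08, standard error 0.05, edgeR adjusted p 0.456). Its small subunit Rrm2 was at 150.2, 163 and 162 CPM against 166, 168 and 157.5 CPM, and thymidylate synthase (Tyms) was at -0.03. Ung, the uracil glycosylase, was at 48.6, 51.4 and 54.1 CPM against 56.5, 56.5 and 52.5 CPM (0.10, standard error 0.06, and 0.07 without control 1).

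At the G1/S switch the cyclins and the E2F genes pointed different ways, and none passed the test. Cyclin E2 (Ccne2, an activator of Cdk2) was at 21.0, 22.4 and 19.8 CPM in control-labelled retinas and at 22.9, 24.6 and 23.9 CPM in cKO-labelled retinas. The groups did not overlap (0.18, standard error 0.07, edgeR adjusted p 0.235), and 609 exonic bases of the gene are shared with Ints8 on the opposite strand. Cyclin E1 (Ccne1) overlapped, with an interval from -0.07 to 0.38. E2f1, a transcriptional activator of S phase genes, was at 128, 124 and 130.0 CPM against 123, 117 and 135 CPM, so the libraries labelled cKO held both the lowest and the highest value. E2f2 was at 54.2, 51.2 and 50.9 CPM against 50.8, 50.2 and 49.5 CPM, separated by under 1 CPM (log2 fold change -0.05).

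Genes acting on chromatin behind the fork summed to 694 to 720 CPM over the 6 libraries, with overlapping groups and none past the test. Uhrf1, which brings the maintenance methyltransferase to newly copied DNA, was at 453, 452 and 426.5 CPM against 443, 432.5 and 426.3 CPM (-0.03, standard error 0.05). The large subunit of chromatin assembly factor 1, Chaf1a, shares 4648 exonic bases with Ubxn6 on the opposite strand. Chaf1a was at 151, 156 and 160.3 CPM against 155, 153 and 156 CPM (-0.01). Its partner Chaf1b was at 0.09 without overlap, and the histone stem-loop binding gene Slbp was at 0.06.

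Within the labelled comparison, the member values varied with the length of the gene. Over the 47 members, which share the same 6 libraries, the Pearson correlation of log2 fold change with the log2 of summed exon length was -0.53 (Spearman -0.47), given as a description. Over the 17245 tested genes with a length the Spearman correlation was -0.27. Of the 16 shortest members (1136 to 3495 bases), 13 were above 0, with a median of 0.09. Of the 16 longest (4882 to 11160 bases), 7 were above 0, with a median of -0.01. Pole, at 11160 bases, is the longest member, and Gins4, at 1349 bases, is the second shortest.

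**Figure D3:**
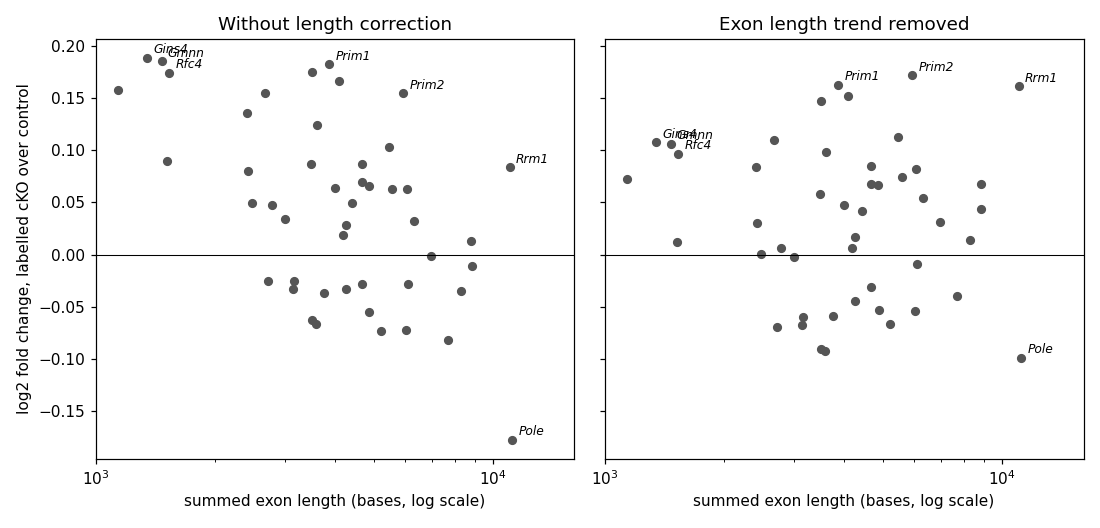
Log2 fold change (labelled cKO over control) of each of the 47 genes against its summed exon length in bases (log axis), without correction (left) and after removal of each library's exon length trend (right). On the left short genes such as Gins4 lie high and Pole lies lowest at -0.18; on the right Pole is at -0.10 and Gins4 at 0.11.

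After removal of each library's length trend, 0 of 47 passed, against 0.22% of all genes, and 32 were above 0, with a median of 0.04. The correlation with log2 length over the members was then -0.09. Pole moved from -0.18 to -0.10, Gins4 and Gmnn from 0.19 to 0.11, and Rfc4 from 0.17 to 0.10. Rpa3 moved from 0.16 to 0.07 and Pcna from 0.14 to 0.08. Prim1 (0.16) and Prim2 (0.17) hardly moved, and Rrm1 went from 0.08 to 0.16 (edgeR adjusted p 0.153). These 3 then had the smallest p of the members, all short of the threshold after adjustment.

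Levels can be set between genes only per length, here as CPM per kilobase of summed exons, averaged over the 6 libraries. Pcna was highest at 112 ± 8.23 (SD, n = 6 libraries) and Uhrf1 next at 103 ± 2.84, and the libraries of these neighbours overlapped. Orc1 was lowest at 2.16 ± 0.18, below Ccne1 at 4.17 ± 0.46 and Gins3 at 4.92 ± 0.35. Neighbours in this order mostly overlapped in their library values. Gaps without overlap lay below Uhrf1, Mcm3, Mcm2, Cdt1, Rrm1, Ccne2 and Ccne1.

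**Figure D4:**
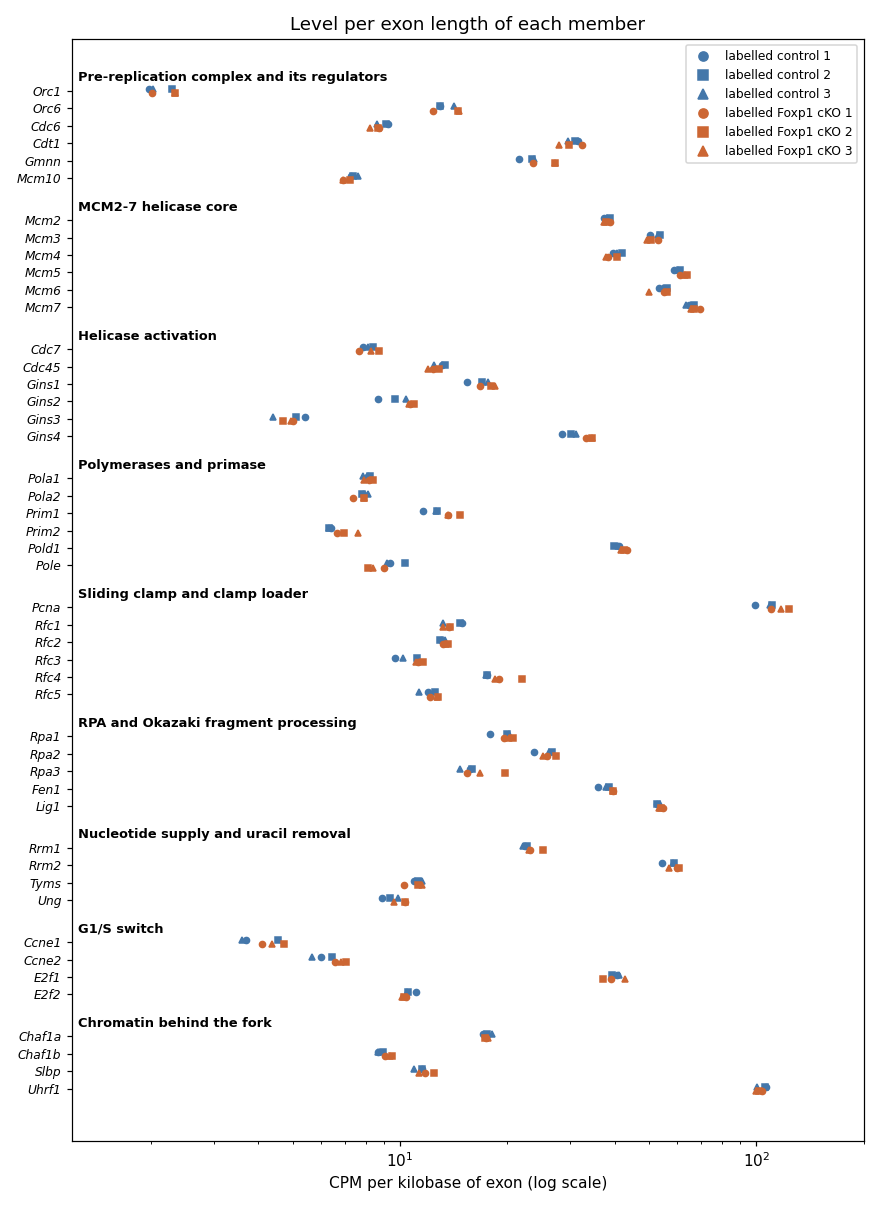
CPM per kilobase of summed exons (log axis) of each of the 47 genes in each of the 6 libraries, by role. Pcna and Uhrf1 lie above 98 in every library and Orc1 below 2.4, while the points of a gene from both labelled groups lie close together.

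Subunits of a complex were not always at like levels. The MCM2-7 subunits spanned a factor of 1.74, from 38.1 (Mcm2) to 66.2 (Mcm7), and the 5 RFC subunits a factor of 1.73, from 10.8 (Rfc3) to 18.7 (Rfc4). The GINS subunits spanned a factor of 6.51, from 4.92 (Gins3) to 32.0 (Gins4). Summed exons include those of rare transcripts, and with the longest protein-coding transcript of the basic GENCODE set as the length the factors were 2.48, 1.77 and 6.05. On that scale Mcm4 was the lowest MCM subunit and Rfc3 the highest RFC subunit. Pcna and Uhrf1 were highest and Orc1 lowest by either length.

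Of 70 other replication genes, 1 passed the test and it was lower in cKO-labelled retinas. Ticrr, a factor that helps load Cdc45 at origins, was at 90.7, 91.9 and 80.7 CPM in control-labelled retinas and at 75.1, 76.8 and 74.0 CPM in cKO-labelled retinas. Its log2 fold change was -0.22 (standard error 0.05, edgeR adjusted p 0.045). That 1 of 70 (1.43%) stands beside 0.781% of all genes, and leaving out control 1, control 2, cKO 2 or cKO 3 ended the call, with adjusted p between 0.153 and 0.246. It was also lost without control 2 and cKO 2 (edgeR adjusted p 0.714), a fit with fewer libraries in which 0.0516% of all genes passed. With the length trend removed, where 0.22% of all genes passed, Ticrr was at -0.15 (edgeR adjusted p 0.153) and was not called. Ticrr has 10007 exonic bases. Over the list, 40 genes were above 0 and 30 below, with a median of 0.01.

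The next genes by p did not pass. Clspn, which couples the fork to the checkpoint, was at 84.8, 82.6 and 76.8 CPM against 73.9, 70.9 and 71.0 CPM (-0.18, edgeR adjusted p 0.069). Pole3, an accessory subunit of polymerase epsilon, was at 62.0, 68.8 and 68.8 CPM against 72.1, 81.5 and 75.7 CPM (0.20, edgeR adjusted p 0.072), opposite in direction to Pole itself. Pole has 11160 exonic bases and Pole3 2040, and fold changes in this comparison varied with exon length. The part of length in this contrast was not tested. The histone chaperone Asf1a (0.21), the ribonuclease subunit Rnaseh2b (0.23) and the maintenance methyltransferase Dnmt1 (-0.15) followed, with adjusted p of 0.085, 0.0996 and 0.15. DESeq2, which called 3.28% of all genes, called Ticrr, Clspn, Pole3, Asf1a and Dnmt1.

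Genes of mitosis and G2 gave a similar count, with 0 of 22 past the test, 10 above 0 and a median of -0.0045. Their summed level was 2740 to 3066 CPM in control-labelled retinas and 2724 to 2842 CPM in cKO-labelled retinas. Mki67, a marker of cycling cells, was highest in the library labelled control 1, at 706 CPM, and was at 466 to 629 CPM in the other 5 libraries, and the kinetochore gene Cenpf was at 219 to 265 CPM against 205 to 230 CPM. The 11 progenitor genes had a summed level of 8601 to 8853 CPM against 8515 to 8896 CPM, and none passed. The 2 most abundant, Ccnd1 (cyclin D1) and Fgf15, were at -0.01 and 0.09 on the log2 scale. Of 18 genes of differentiating neurons, Tfap2b (-0.25) and Prox1 (-0.24) passed (11.1%, against 0.781% of all genes). These 2 calls were not followed under other processing. At an unadjusted edgeR p below 0.05 there were 8 of the 18 (44.4%, against 16.5% of all genes), 4 higher and 4 lower. The abundant Tubb3 (0.13) and Stmn2 (0.17) did not pass after adjustment. The summed level of the 18 was 4940 to 5074 CPM against 4985 to 5287 CPM. Markers of other tissues varied as well, and none passed. All 13 lens genes had counts, and they summed to 64.6, 263 and 952 CPM against 60.7, 19.2 and 266 CPM, led by the crystallin genes Cryaa and Crybb1. Pigment epithelium genes (9, led by Pmel and Rlbp1, with Rpe65 at 0 to 2 counts) summed to 46.3 to 120 CPM over the 6 libraries and blood genes (8, led by Hbb-bs and Hba-a1) to 74.3 to 180.2 CPM. Endothelial genes (7, led by Kdr and Cldn5) summed to 336, 354 and 328 CPM against 299, 297 and 306 CPM, without overlap, and nearly all of this was Kdr (322 against 286 CPM on average). Of the other tested endothelial genes, Cldn5 was at -0.20 on the log2 scale, with 15.2 against 13.2 CPM on average. Pecam1 (0.08) was at 0.59 against 0.62 CPM and Cdh5 (0.20) at 0.48 against 0.55 CPM. The endothelial sum therefore follows Kdr and not the list as a whole. The sums were 18.4 to 24.9 CPM for microglial genes (7, led by Csf1r and Cx3cr1), 69.3 to 176 CPM for mesenchymal genes (9, led by Col1a1 and Col1a2) and 7.44 to 35.9 CPM for muscle genes (8, led by Myh3 and Acta1). The part of these tissues in the member values was not tested.

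The authors' deposited table, labelled cKO against control, mostly reverses these directions. Of the 47 members, 45 have in the authors' deposited table a sign that differs from the one computed here from the counts, the exceptions being Pola1 and Chaf1a, both within 0.02 of 0. The authors' deposited table reverses the sign for 92.6% of all genes tested, near the 95.7% of the members. The authors' deposited table calls 0 of 47 at an adjusted p of 0.05, against 3.23% of its 21080 rows (681). Its adjusted p is missing for 6 members and for 13487 of all its rows, and those could not be called. The smallest adjusted p of the members is 0.068 (Pcna). In the authors' deposited table Pole stands at 0.17, Gins4 at -0.21, Prim1 at -0.19, Gmnn at -0.22 and Pcna at -0.16. Foxp1 is at -0.60 in the authors' deposited table, opposite to its counts as well. The sex-linked counts of each labelled group also follow the labelled sexes of the other group, and an exchange of labels was not tested.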

How the data were processed

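The authors deposited raw whole-number read counts for each gene and a table of their own comparison. Per the file headers, that table gives a normalized mean signal, a score (the test statistic), p-values, and log2 fold changes. RNA was depleted of ribosomal RNA and made into directional paired-end libraries, per the labels' protocols. Per the submitters' processing notes, cutadapt 2.8, STAR 2.7.6a, featureCounts 1.5.1, DESeq2 1.32.0 and the mm10 build were used. Their settings, and whether counting used the strand, are not stated in these sources.

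Counts were filtered with filterByExpr and fitted with edgeR 4.0.16 (R 4.3.3): TMM, genotype alone, robust quasi-likelihood tests, Benjamini-Hochberg adjustment over 17275 genes at 0.05. Each standard error was the log2 fold change divided by the root of F, and 95% intervals from the t distribution of the fit. The scripts were tested on simulated data. Names came from the deposited table, and positions and lengths from GENCODE M21. Alternatives were DESeq2 1.42.0, limma-voom (limma 3.58.1), other scalings and filters, covariates, length offsets (lowess span 0.3) and left-out libraries. The length of the longest coding transcript was added after the data were seen. Members and lists were chosen with earlier results of these data known. Values in every library are given for the 12 members with the smallest p and the 2 highest per kilobase in each role; Mcm2 and Mcm10 were named after their values were seen. From the other replication genes the 6 with the smallest p are named, and from the other lists those past the threshold and the 2 with the highest CPM.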

Additional observations from a re-analysis of the deposited data

How the results depend on the processing

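The count of members past the threshold stayed at 0 under 13 of 17 alternatives. It was 1 with no filter beyond a count above 0 (Pole), 2.13% of the members against 2.47% of all genes. With a replicate block it was 3 (Gins4, Prim1 and Pcna), 6.38% against 6.16% of all genes. It was 0 to 2 with 1 library left out. Pole and Gins2 passed without the library labelled control 3 (4.26% against 4.4% of all genes). Pole passed without cKO 1 (2.13% against 2.04% of all genes). These shares lay close to those of all genes. The count over all genes, 135, was 83 with a filter at 1 CPM, 742 with no filter, 566 with DESeq2, 13 with limma-voom, 10 without robust estimation, 1065 with the replicate block, 38 with the length trend removed, 9 without control 2 and cKO 2, and 19 to 778 with 1 library left out. Among the other replication genes the count of 1 became 3 with no filter (4.29%), 5 with DESeq2 (7.14%) and 5 with the replicate block (7.14%). The shares of all genes were 2.47%, 3.28% and 6.16%. With 1 library left out the count was 0 to 3. The count was 0 with upper quartile scaling, the 1 CPM filter, limma-voom, no robust estimation or labelled sex as a covariate. It was also 0 with the length trend removed or without control 2 and cKO 2. The sex covariate uses the labels of control 2 and cKO 2, which their sex-linked counts go against. The median over the members kept its sign throughout and ran from 0.03 to 0.07. By role, the median of the polymerase and primase genes went from 0.0394 to 0.0672 with the length trend removed and was 0.0303 to 0.0599 with 1 library left out, and that of the genes acting on chromatin behind the fork went from 0.026 to 0.0628 with the length trend removed. Of 25 named members, 22 kept their sign under all 17 alternatives. The others were close to 0: Cdt1 was at 0.00611 with labelled sex as a covariate, Chaf1a was at 0.0439 with the length trend removed, and with 1 library left out Cdt1 ran from -0.089 to 0.0185 (above 0 without cKO 3), E2f1 from -0.0797 to 0.0186 (above 0 without cKO 2) and Chaf1a from -0.0312 to 0.0123 (above 0 without control 3). Leaving out 1 library moved 17 of the 25 by over 1.5 times; 7 of these had a log2 fold change of at least 0.1. Same-numbered libraries of the groups had correlations of their deviations of 0.09, -0.05 and 0.20. Differently numbered ones ran from -0.22 to 0.17. So few values cannot decide whether the numbers pair the animals. The cause of the differences between these alternatives was not tested. With 3 libraries per group, the 95% intervals of the members reached a median of 0.11 to either side on the log2 scale, which limits the differences that could be detected.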
